A study of Mus musculus with 12 samples.

Results

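The interaction of cytochalasin D and CK666 was measured in mouse bone marrow-derived mesenchymal stem cells (BMSCs). These stromal cells grow attached to plastic and can become osteoblasts, adipocytes or chondrocytes. The interaction is the change that cytochalasin D brought about in cells also given CK666, minus the change it brought about in cells without CK666, on a log scale. All 12 libraries of the series enter it, 3 in each of 4 groups: cells given both compounds for 24 h (CytoD+CK), cells given CK666 alone for 24 h (CK), cells given cytochalasin D alone for 24 h (CytoD) and cells given neither (Ctrl). The rule takes every gene that can be tested, which left 13534 of the 23358 rows of the count table. The cells were plated at 10000 per square centimetre in medium with 10% serum and kept for 1 day before the compounds were added. Strain, age and sex of the mice, the concentrations of the compounds and the solvent given to Ctrl cells are not stated in the sources used here. The labels do not say that replicates come from separate animals or cultures, so the p-values measure the spread between these samples, which may be technical.

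Actin exists in cells as single molecules (G-actin) and as filaments (F-actin). Cytochalasin D, a fungal compound, caps the growing ends of filaments, and CK666 holds the Arp2/3 complex, which starts new branches on existing filaments, in an inactive state. G-actin binds the coactivators MRTF-A and MRTF-B. When filaments form and G-actin runs low, MRTF enters the nucleus and, with serum response factor (SRF), turns on genes of the actin cytoskeleton and of contractile cells. Tension on filaments also keeps YAP and TAZ, coactivators of the TEAD factors, in the nucleus. In marrow stromal cells, loss of filaments and of tension is known to favour the adipocyte programme, which the nuclear receptor PPAR gamma and the factor C/EBP alpha drive. Cytochalasin D has itself been reported to move actin into the nucleus of such cells.

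Libraries held 48930210 to 69269716 gene counts. Levels are given in CPM (counts relative to the TMM-adjusted size of the library), so a gene can be compared between libraries but not with a gene of another length. Where no count was seen, up to 3 could have been missed through counting error alone, which is at most 0.0613 CPM. CK replicate 3 stood apart from its group. Its genes differed from those of CK replicates 1 and 2 by a median of 0.282 and 0.271 on the log2 scale, against 0.122 between CK replicates 1 and 2. The differences ran with gene length, with a correlation across the 13534 genes of -0.458 for CK replicate 3. Counts over gene lists that moved by over 1.5 times without this library are given with and without it. The 19 marrow stromal and niche markers summed to 9099 to 13046 CPM in Ctrl libraries. Most of this was Cxcl12, a chemokine that holds blood stem cells in the marrow, at 10783, 7115 and 7094 CPM. Thy1, another marker of this list, had too few counts to be tested. Of 14 macrophage markers, 7 had no more than 3 counts in any library, Ptprc and Itgam among them, and the summed level of the list was 8.04 to 8.80 CPM in CytoD+CK, 7.13 to 9.17 CPM in CK, 12.1 to 13.2 CPM in CytoD and 9.81 to 10.9 CPM in Ctrl libraries. Endothelial markers summed to no more than 6.29 CPM in any library, with 4 of 12 at or under 3 counts throughout, and erythroid and lymphoid markers to no more than 8.16 CPM, with 7 of 11 at or under 3 counts.

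With no interaction the level in CytoD+CK cells equals the CytoD level times the CK level over the Ctrl level, which is called the product below. A log2 interaction of 1 puts the combination at 2 times the product. Because the contrast subtracts logarithms, it asks whether fold changes multiply, not whether amounts add. Where this matters the sum is given too, which is the CytoD level plus the CK level minus the Ctrl level. The product and the sum carry no test of their own, and the interaction was tested in edgeR by quasi-likelihood, with p-values adjusted by Benjamini and Hochberg over all 13534 genes.

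The combination lay above the product for 897 genes (6.63% of those tested) and below it for 1038 genes (7.67%), so 14.3% of genes were called at an adjusted p under 0.05. An interaction of at least 2-fold was called for 152 genes above the product (1.12%) and 362 below it (2.67%). The median log2 interaction was 0.57 for the genes called higher and -0.75 for those called lower, beside -0.02 over all genes tested. The median SE of a gene was 0.16. With upper quartile scaling the split was 648 higher and 1315 lower. The counts depended on single libraries: 1936 genes were called higher without CK replicate 3, 528 without Ctrl replicate 2, 545 without Ctrl replicate 3, 506 without CytoD replicate 2 and 514 without CytoD replicate 3. For genes called lower, the counts were 584 without Ctrl replicate 2, 569 without Ctrl replicate 3, 588 without CytoD replicate 2 and 601 without CytoD replicate 3. Without CK replicate 3, 894 of the 897 genes and 969 of the 1038 genes were called in the same direction. All 1935 genes kept their sign in each of the 12 fits that left out 1 library, and 446 of those called higher and 490 of those called lower were called in all 12.

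Most genes of the interaction were changed by cytochalasin D alone by a call, and were not called with it in CK666-treated cells. Among the 897 genes called higher, the median log2 change with cytochalasin D was 0.04 in CK666-treated cells (CytoD+CK against CK) and -0.54 in untreated cells (CytoD against Ctrl), and the median change with CK666 was 0.12 in CytoD-treated cells and -0.46 in untreated cells. Among the 1038 called lower, the change with cytochalasin D had a median of -0.05 in CK666-treated cells and 0.68 in untreated cells, and that with CK666 a median of -0.17 in CytoD-treated cells and 0.54 in untreated cells. Over all genes tested these 4 medians lay between 0.00 and 0.03. These changes are the parts of the interaction and share its libraries, so they describe it and add no evidence to it. Cytochalasin D lowered 801 of the 897 genes when given alone, and 711 of those were not called in CK666-treated cells. It raised 881 of the 1038 genes when given alone, and 772 of those were not called in CK666-treated cells. By sign alone, whatever the call, the fitted change in CK666-treated cells was opposite to that in untreated cells for 505 of the 897 (56.3%) and 554 of the 1038 (53.4%), beside 35.5% of all genes tested. It was in the same direction and smaller for 377 (42.0%) and 452 (43.5%), beside 41.7% of all. As a background, cytochalasin D alone raised 19.1% and lowered 18.9% of all genes tested, and in CK666-treated cells it raised 4.43% and lowered 7.17%.

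**Figure D1:**
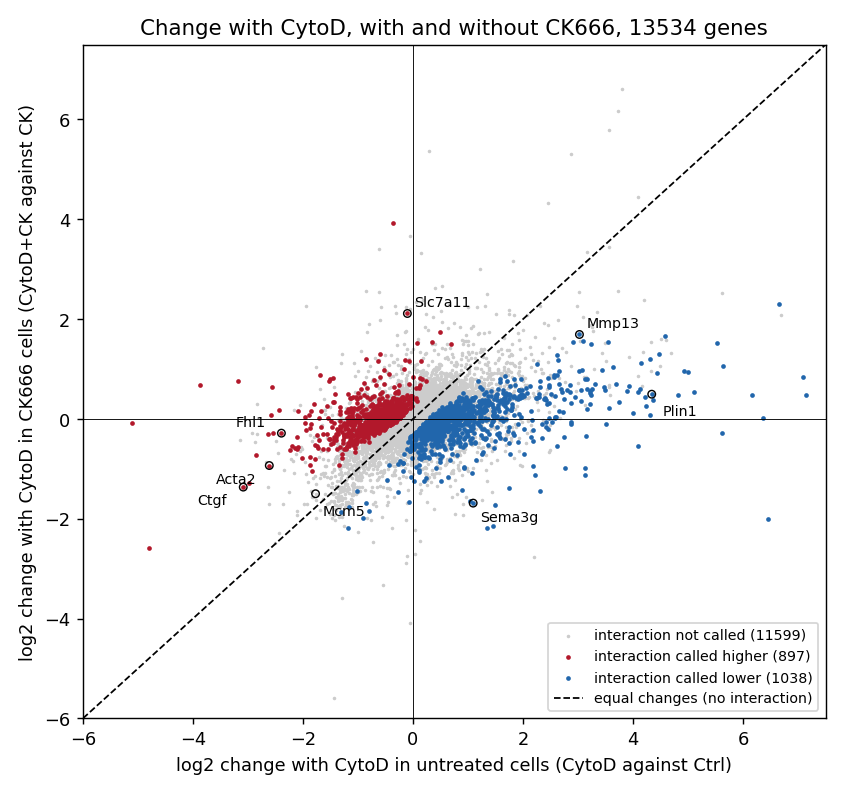
Log2 change with cytochalasin D in CK666-treated cells (CytoD+CK against CK, vertical axis) and in untreated cells (CytoD against Ctrl, horizontal axis), 1 point per gene, with 5 uncalled genes outside the plotted range of -6 to 7.5. Genes called higher in the interaction (897) lie above the dashed line of equal changes and genes called lower (1038) below it, most of them close to 0 on the vertical axis.

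Each compound alone lowered 1330 genes, and each alone raised 1354. Of the lowered genes the combination was called short of the product for 603 (45.3%) and past it for 2. Of the genes raised by each compound alone it was called short of the product for 648 (47.9%) and past it for 0. Most of the genes short of the product had a combined level that was not called different from at least 1 of the single treatments, 573 of the 603 lowered genes and 607 of the 648 raised ones. The 2 genes past the product were Cdca3 and Nuf2, chosen here after their values were seen. Over all genes tested, 6.63% were called higher and 7.67% lower in the interaction. The genes counted here were selected by changes that share the Ctrl, CK and CytoD libraries with the interaction. Error in those libraries alone moves selected genes towards short of the product. The split therefore describes these genes and is no evidence of its own.

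Genes of the adipocyte programme mostly rose with each compound alone, and few of them were called raised by cytochalasin D in CK666-treated cells. Of 30 listed genes, 27 were tested. The interaction was called lower for 13 and higher for 0, with a median of -0.62, beside 7.67% and 6.63% of all genes and a median of -0.02. These shares and this median are the background for the interaction counts of every list below. With each library left out in turn, between 12 and 18 were called lower, and 0 higher except without CK replicate 3, where 1 was. Cytochalasin D in CK666-treated cells raised 4 of the 27 and lowered 0 (4.43% and 7.17% of all genes), while alone it raised 21 and lowered 0 (19.1% and 18.9%). The median log2 change of the list with cytochalasin D was 0.46 in CK666-treated cells and 1.05 in untreated cells. Over all genes tested these medians were 0.00 and 0.02, so the list still leaned upward in CK666-treated cells. CK666 raised 23 and lowered 1 in CytoD-treated cells (15.8% and 14.3% of all genes), and alone it raised 25 and lowered 0 (22.5% and 18.7%).

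Plin1 encodes perilipin 1, the coat protein that guards the lipid droplet of fat cells, and lies at chr7:79721164-79732776 in GRCm38 coordinates. It stood at 524, 738 and 673 CPM in CytoD+CK libraries, 315, 502 and 554 CPM in CK libraries, 139.6, 139.8 and 144 CPM in CytoD libraries and 7.61, 6.09 and 7.21 CPM in Ctrl libraries. The 4 groups did not overlap except that the highest CK library exceeded the lowest CytoD+CK library. The log2 change with cytochalasin D was 0.50 in CK666-treated cells (edgeR adjusted p = 0.083) and 4.34 in untreated cells (edgeR adjusted p = 6.22e-08), which gave a log2 interaction of -3.84 ± 0.26 (SE; edgeR adjusted p = 9.41e-06). The measured mean was 645 ± 109.9 CPM (SD, n = 3), against a product of 9265 ± 1594 CPM (SE) and a sum of 592 CPM. The measured mean thus lay far under the product. It was above the sum, but the sum was inside the range of the CytoD+CK libraries.

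Adipoq, which encodes the fat cell hormone adiponectin, followed the same order, with 654, 939.9 and 915 CPM in CytoD+CK libraries, 445, 601 and 765 CPM in CK libraries, 146, 154 and 158 CPM in CytoD libraries and 17.7, 15.4 and 15.6 CPM in Ctrl libraries. Only the CytoD+CK and CK ranges overlapped. Its log2 interaction was -2.76 ± 0.25 (SE; edgeR adjusted p = 5.61e-05), with a product of 5678 ± 918 CPM (SE) and a sum of 739.8 CPM. Cd36, a fatty acid uptake receptor, had 60.2, 90.8 and 98.3 CPM in CytoD+CK libraries, 43.6, 67 and 60.2 CPM in CK libraries, 8.55, 8.02 and 8.74 CPM in CytoD libraries and 0.489, 0.423 and 0.564 CPM in Ctrl libraries. Here too CytoD+CK and CK overlapped and the other groups were apart. The log2 interaction of Cd36 was -3.54 ± 0.32 (SE; edgeR adjusted p = 5.61e-05). Cfd, which encodes adipsin, a protease of the complement cascade made by fat cells, moved further in the combination than with either compound alone. Its levels were 40.3, 59.4 and 54.8 CPM in CytoD+CK libraries, 8.67, 17.8 and 22.4 CPM in CK libraries, 5.26, 4.36 and 4.01 CPM in CytoD libraries and 0.204, 0.211 and 0.15 CPM in Ctrl libraries. All CytoD+CK libraries stood above all others, and cytochalasin D raised Cfd by a log2 change of 1.66 in CK666-treated cells (edgeR adjusted p = 0.00114) and 4.58 in untreated cells (edgeR adjusted p = 1.04e-05). Its interaction was -2.93 ± 0.57 (SE; edgeR adjusted p = 0.00534), and its sum of 20.7 CPM was under the measured 51.5 ± 9.98 CPM. On the linear CPM scale the interaction of Plin1, Adipoq, Cd36 and Cfd was therefore positive in sign while it was negative on the log scale. The linear scale was not tested. For Plin1, Adipoq and Cd36 the sum lay inside the range of the CytoD+CK libraries, so a level above the sum was not established. For Cfd every CytoD+CK library was above the sum. By sign alone, the direction differed between the scales for 38 of the 1038 genes called lower and for 0 of the 897 called higher. Also by sign, 15 of the 27 adipocyte genes were positive on the linear scale against 1 on the log scale.

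The regulators of the programme moved less, and their direction was the same on both scales. Pparg, the gene of PPAR gamma, averaged 269 ± 16.3 CPM in CytoD+CK, 256 ± 22.5 CPM in CK, 206 ± 2.17 CPM in CytoD and 136 ± 6.88 CPM in Ctrl libraries (SD, n = 3 each). CytoD+CK and CK libraries overlapped, CytoD libraries lay under both and Ctrl libraries were lowest. The log2 interaction was -0.52 ± 0.11 (SE; edgeR adjusted p = 0.0071), with a product of 387 ± 22.7 CPM (SE) and a sum of 326 CPM. Cebpa, the gene of C/EBP alpha, averaged 998 ± 75.9 CPM in CytoD+CK, 965 ± 117 CPM in CK, 764 ± 40.4 CPM in CytoD and 430.2 ± 23.5 CPM in Ctrl libraries. Its log2 interaction was -0.78 ± 0.13 (SE; edgeR adjusted p = 0.00201). Lpl encodes lipoprotein lipase, which frees fatty acids from circulating fat particles. Its libraries held 6488, 7750.4 and 8033 CPM in CytoD+CK libraries, 5472, 5685 and 6501 CPM in CK libraries, 7235, 7435 and 7567 CPM in CytoD libraries and 3476, 2886 and 2923 CPM in Ctrl libraries. CytoD+CK overlapped both CK and CytoD, CK lay under CytoD and Ctrl was lowest, and the log2 interaction was -0.93 ± 0.14 (SE; edgeR adjusted p = 0.00137). Lipe, the hormone-sensitive lipase, had -2.22 ± 0.32 (edgeR adjusted p = 0.00101). Adrb3, the beta 3 adrenergic receptor that starts lipolysis, had -2.01 ± 0.38 (edgeR adjusted p = 0.00486), and Klf15, a factor of adipocyte metabolism, -1.41 ± 0.28 (edgeR adjusted p = 0.00637). These 3 were named after their values were seen.

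Not every lipid gene was short of the product. Fabp4, the fatty acid binding protein of fat cells, averaged 687 ± 129 CPM in CytoD+CK, 381 ± 115 CPM in CK, 91.8 ± 2.56 CPM in CytoD and 60.2 ± 4.14 CPM in Ctrl libraries, and each CytoD+CK library was above each CK library. Its log2 interaction was 0.24 ± 0.25 (edgeR adjusted p = 0.568), so the combined level of 687 ± 129 CPM was not distinguishable from the product of 581 ± 104 CPM (SE). Pnpla2, the adipose triglyceride lipase, likewise had an interaction of -0.23 ± 0.23 (edgeR adjusted p = 0.551) around a measured 499.7 ± 78.4 CPM and a product of 587 ± 95.9 CPM (SE). Among 19 genes of fatty acid and triglyceride synthesis, 4 were called higher and 4 lower, with a median of 0.03. Dgat1 and Dgat2, which add the last fatty acid of a triglyceride, had interactions of -0.93 ± 0.20 (edgeR adjusted p = 0.0105) and -1.29 ± 0.27 (edgeR adjusted p = 0.00871). Those called higher fell to 2 without any of Ctrl replicate 2 or 3, CytoD replicate 2 or 3, or CytoD+CK replicate 2 or 3. Of 21 genes of fatty acid oxidation and peroxisomes, 5 were called lower and 0 higher, and Hadh, a beta-oxidation dehydrogenase, and Acaa2, the thiolase of its last step, had interactions of -0.66 ± 0.12 (edgeR adjusted p = 0.00441) and -0.61 ± 0.13 (edgeR adjusted p = 0.0086). DESeq2 called 6 of these 21 lower and 0 higher, and at an unadjusted p under 0.05 edgeR gave 7 lower and 1 higher. The count of 5 fell to 3 without Ctrl replicate 2 or any CytoD replicate.

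**Figure D2:**
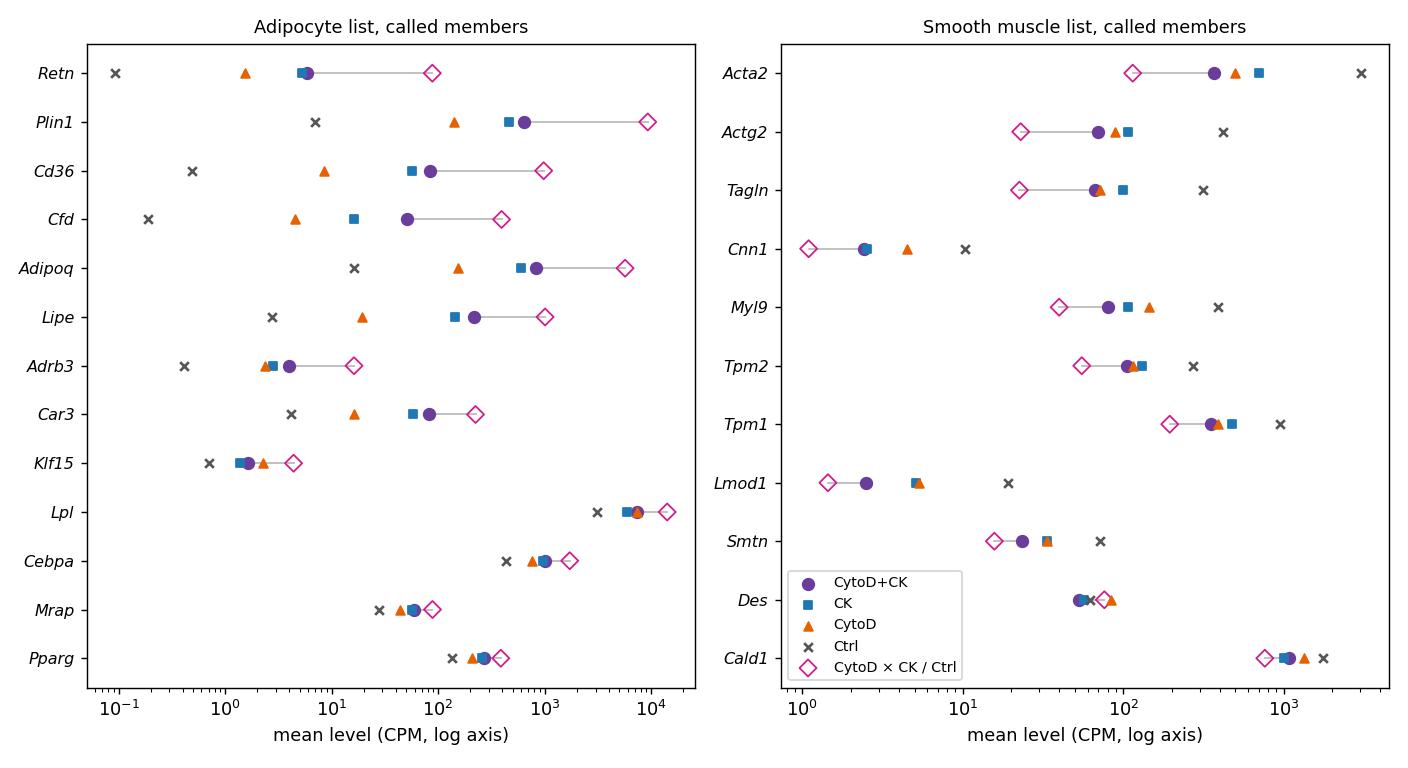
Mean level (CPM, log axis) of the called members of the adipocyte list and of the smooth muscle list in CytoD+CK (circles), CK (squares), CytoD (triangles) and Ctrl (crosses), with the product CytoD × CK / Ctrl as an open diamond joined to the CytoD+CK level. Plin1 reached 645 CPM against a product of 9265 CPM, and Acta2 367 CPM against a product of 115 CPM.

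Most genes of the contractile apparatus fell with each compound alone, and for most the interaction was called higher, with a combined level above the product. Of 14 tested genes of the smooth muscle list, the interaction was called higher for 10 and lower for 1 (6.63% and 7.67% of all genes), with a median of 0.82. Between 8 and 10 were called higher with each library left out in turn. The call of the 1 lower gene, Des, was lost without any Ctrl or CytoD replicate and without CytoD+CK replicate 1 or 3. Cytochalasin D lowered 6 of the 14 in CK666-treated cells and raised 0 (7.17% and 4.43% of all genes). Alone it lowered 10 and raised 1 (18.9% and 19.1% of all genes).

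Acta2, the gene of smooth muscle alpha actin at chr19:34241091-34255336, had 419, 351 and 330.0 CPM in CytoD+CK libraries, 595, 669.6 and 837 CPM in CK libraries, 475, 502 and 515 CPM in CytoD libraries and 3005, 2999 and 3122 CPM in Ctrl libraries. No library of 1 group fell in the range of another, and CytoD+CK was lowest throughout. Cytochalasin D changed Acta2 by a log2 value of -0.93 (edgeR adjusted p = 0.000201) in CK666-treated cells and -2.61 (edgeR adjusted p = 6.22e-08) in untreated cells. The combination averaged 367 ± 46.6 CPM against a product of 115 ± 12.1 CPM (SE), a log2 interaction of 1.68 ± 0.16 (SE; edgeR adjusted p = 7.61e-05). A sum would be negative, -1844 CPM, since each compound alone removed most of the Ctrl level.

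Tagln, which encodes the actin-binding protein transgelin, had 71.1, 68.2 and 59.7 CPM in CytoD+CK libraries, 74.5, 96.2 and 126 CPM in CK libraries, 71.7, 71.1 and 71.6 CPM in CytoD libraries and 304, 319 and 320.1 CPM in Ctrl libraries. CytoD+CK libraries reached up to the CytoD range, CK libraries were higher and Ctrl libraries far above. Its log2 interaction was 1.56 ± 0.20 (SE; edgeR adjusted p = 0.000502). Actg2, smooth muscle gamma actin, had 1.60 ± 0.21 (edgeR adjusted p = 0.000538), and Cnn1, the filament protein calponin 1, 1.13 ± 0.27 (edgeR adjusted p = 0.0153). Reads of the near-identical actin genes, and reads shared by Tagln and the overlapping Pcsk7, cannot be assigned with certainty.

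Of 18 targets of SRF and MRTF, 12 were called higher and 0 lower (median 0.59, and 10 to 15 called higher with each library left out in turn). At an unadjusted p under 0.05 edgeR gave 14 higher and 0 lower, and DESeq2 called 13 higher and 0 lower. Fhl1, a LIM domain protein of muscle, had 6.47, 5.42 and 5.79 CPM in CytoD+CK libraries, 5.91, 7.78 and 7.79 CPM in CK libraries, 6.62, 6.61 and 6.9 CPM in CytoD libraries and 32.3, 37.4 and 36 CPM in Ctrl libraries. The 3 treated groups lay together, within 5.42 to 7.79 CPM, and the Ctrl libraries alone were high. Its product was 1.36 ± 0.134 CPM (SE), and its log2 interaction 2.11 ± 0.16 (SE; edgeR adjusted p = 2.38e-05) was the largest of the list. Filip1l, a gene of cell migration, had 39.8 ± 2.12 CPM in Ctrl libraries, its treated groups overlapped below that, and the interaction was 1.36 ± 0.12 (SE; edgeR adjusted p = 5.61e-05). Csrp1, a LIM protein that binds actin bundles, had 135 ± 8.96 CPM in CytoD+CK, 181 ± 22.2 CPM in CK, 139 ± 4.16 CPM in CytoD and 453 ± 14.4 CPM in Ctrl libraries and an interaction of 1.28 ± 0.12 (SE; edgeR adjusted p = 6.73e-05). Srf itself averaged 60.2 ± 1.76 CPM in CytoD+CK, 81.7 ± 19.1 CPM in CK, 66.6 ± 3.89 CPM in CytoD and 104 ± 4.54 CPM in Ctrl libraries, and its interaction of 0.21 ± 0.19 (edgeR adjusted p = 0.5) was not called.

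Flna, the gene of the actin crosslinker filamin A, is a target that changed direction. It held 2187, 2005 and 1971 CPM in CytoD+CK libraries, 1538, 1768 and 1386 CPM in CK libraries, 2395, 2545 and 2467 CPM in CytoD libraries and 3781, 3901 and 3662 CPM in Ctrl libraries. CK libraries were lowest and every CytoD+CK library exceeded every CK library. Cytochalasin D raised Flna in CK666-treated cells by 0.39 (edgeR adjusted p = 0.00936) and lowered it in untreated cells by a log2 change of -0.61 (edgeR adjusted p = 0.000111), so that the interaction was 1.01 ± 0.12 (SE; edgeR adjusted p = 0.000303). Actb, the cytoplasmic beta actin, averaged 1344 ± 68.3 CPM in CytoD+CK, 1477 ± 140.2 CPM in CK, 1986 ± 132 CPM in CytoD and 2878 ± 198 CPM in Ctrl libraries. Its interaction was 0.40 ± 0.12 (SE; edgeR adjusted p = 0.0414), and the call was lost with upper quartile scaling and in 10 of the 12 fits without 1 library, remaining only without CK replicate 3 or CytoD+CK replicate 3. For Actg1, cytoplasmic gamma actin, the interaction was 0.66 ± 0.12 (SE; edgeR adjusted p = 0.00381), around 2229.7 ± 192 CPM in CytoD+CK, 2156 ± 223 CPM in CK, 2699 ± 63.7 CPM in CytoD and 4135 ± 236 CPM in Ctrl libraries, and this call was kept in all 12. Actg1 and Myl9, below, were named after their values were seen.

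**Figure D3:**
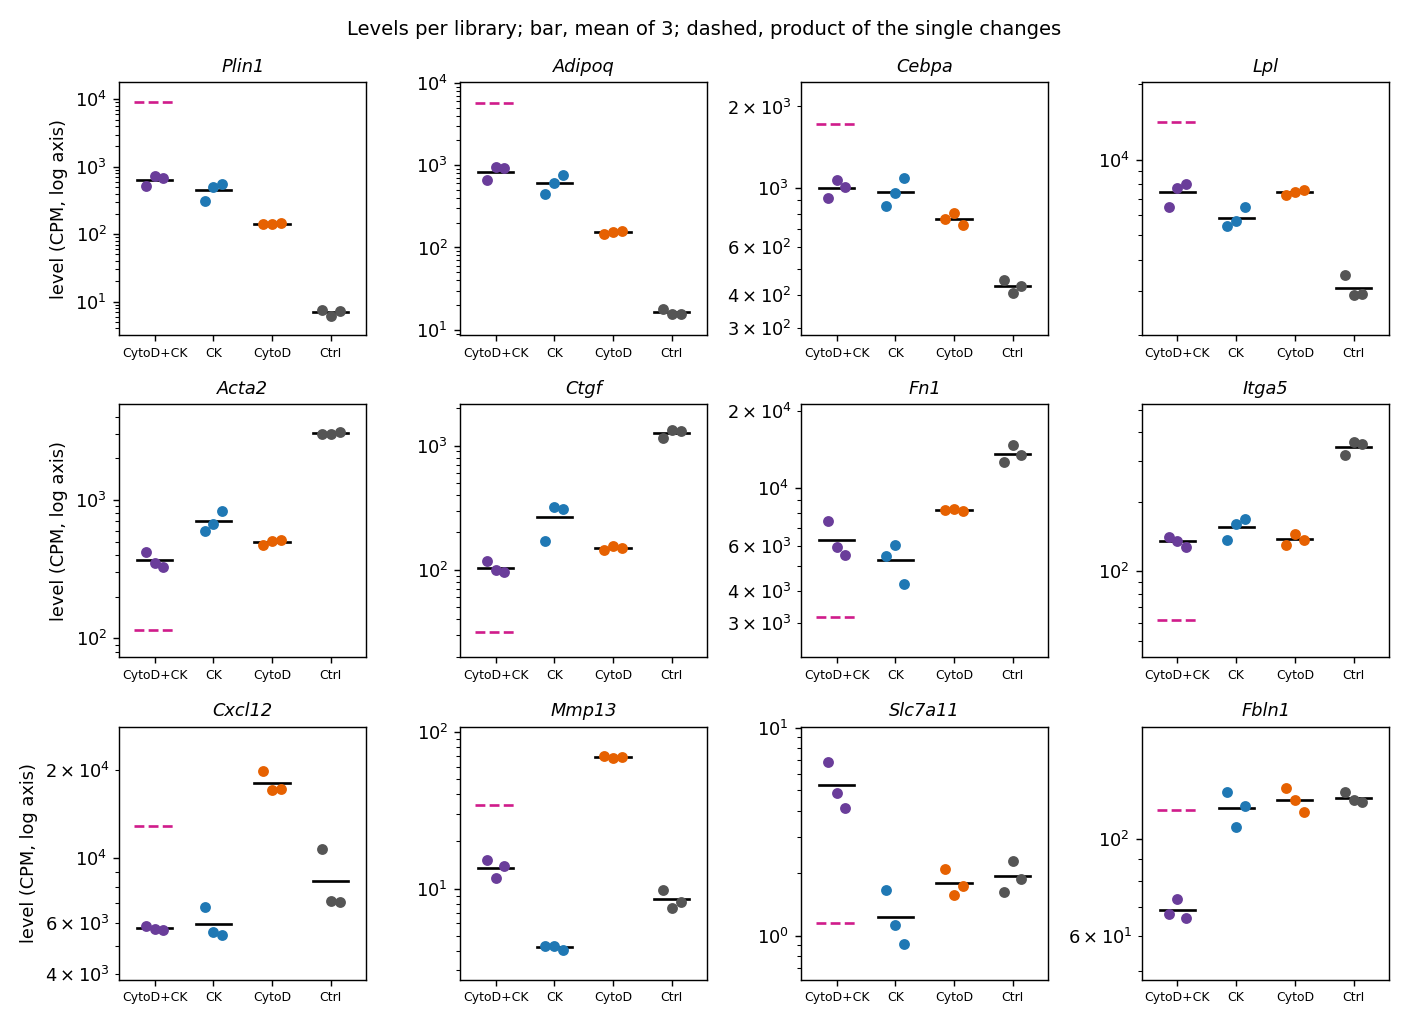
Levels of 12 genes in each library (CPM, log axis) in CytoD+CK, CK, CytoD and Ctrl, with a solid bar at the mean of 3 libraries and a dashed bar at the product over the CytoD+CK group. The CytoD+CK points sit under the dashed bar for Plin1, Adipoq, Cebpa, Lpl, Cxcl12, Mmp13 and Fbln1 and above it for Acta2, Ctgf, Fn1, Itga5 and Slc7a11.

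Of 25 targets of YAP and TAZ tested, 6 were called higher and 1 lower, with a median of 0.22, and 11 were called higher without CK replicate 2. Without CK replicate 3, 2 were called lower. The gene called lower, F3, lost its call without any Ctrl or CytoD replicate, CK replicate 1 or CytoD+CK replicate 2 or 3. Ctgf, a matricellular growth factor gene and a standard readout of YAP, had 118, 98.9 and 95.7 CPM in CytoD+CK libraries, 171, 323 and 312 CPM in CK libraries, 144, 155 and 149 CPM in CytoD libraries and 1147, 1338 and 1323 CPM in Ctrl libraries. CytoD+CK libraries were all lowest and CK libraries were more scattered than the others. The product was 31.6 ± 6.01 CPM (SE), and the log2 interaction 1.72 ± 0.26 (SE; edgeR adjusted p = 0.00126). Axl, a receptor kinase, had an interaction of 1.05 ± 0.21 (edgeR adjusted p = 0.00729). Cyr61, the other standard readout, averaged 181 ± 23.3 CPM in CytoD+CK, 364 ± 135 CPM in CK, 318 ± 75.8 CPM in CytoD and 712 ± 104 CPM in Ctrl libraries. Its interaction was 0.16 ± 0.35 (edgeR adjusted p = 0.8) and was not called, with a sign that turned without CK replicate 1 or CytoD replicate 1. Among 16 immediate early genes, the activator protein genes Jun (1.13 ± 0.23, edgeR adjusted p = 0.00686) and Jund (0.71 ± 0.16, edgeR adjusted p = 0.0106) were the only ones called, with 1 other called lower without CytoD replicate 1. Of all genes, 6.63% were called higher and 7.67% lower.

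The target of CK666 itself, the Arp2/3 complex, and its activators gave 2 genes called higher and 1 lower among 21 (6.63% and 7.67% of all genes). Actr3, the subunit Arp3, averaged 359.6 ± 39.3 CPM in CytoD+CK, 369 ± 46.6 CPM in CK, 394 ± 11.6 CPM in CytoD and 604 ± 23.1 CPM in Ctrl libraries. The 3 treated groups overlapped and lay under Ctrl, the product was 240.3 ± 18.8 CPM (SE) and the interaction 0.58 ± 0.13 (SE; edgeR adjusted p = 0.0136). Actr2, the subunit Arp2, averaged 279 ± 17.4 CPM in CytoD+CK, 229 ± 26.3 CPM in CK, 297 ± 11.7 CPM in CytoD and 317 ± 11.9 CPM in Ctrl libraries, with an interaction of 0.38 ± 0.12 (edgeR adjusted p = 0.0504), just over the threshold. Cttn, cortactin, which steadies branches, had 0.35 ± 0.08 (edgeR adjusted p = 0.0116). The count called higher was 8 without CK replicate 3, 5 without CK replicate 1 and 4 with RLE size factors. The lower call was lost without Ctrl replicate 2 or 3, any CytoD replicate or CytoD+CK replicate 1. The actin turnover and nuclear transport list gave 7 of 25 genes called higher and 0 lower, with 14 higher and 2 lower without CK replicate 3 and 4 higher without Ctrl replicate 3. At an unadjusted p under 0.05 the edgeR counts were 12 higher and 0 lower, and those of DESeq2 9 higher and 0 lower. Dstn, the filament-severing protein destrin, averaged 518 ± 27.7 CPM in CytoD+CK, 489 ± 17.2 CPM in CK, 508 ± 16.8 CPM in CytoD and 846 ± 48.2 CPM in Ctrl libraries, with CytoD+CK, CK and CytoD overlapping. Its product was 294 ± 12.7 CPM (SE) and its interaction 0.82 ± 0.09 (SE; edgeR adjusted p = 0.00027). Wdr1, which helps cofilin take filaments apart, had 0.80 ± 0.11 (edgeR adjusted p = 0.000776). Daam1, a formin that builds unbranched filaments, averaged 40.0 ± 0.54 CPM in CytoD+CK, 27.2 ± 3.72 CPM in CK, 34.5 ± 2.49 CPM in CytoD and 41.8 ± 1.66 CPM in Ctrl libraries. Cytochalasin D raised it in CK666-treated cells (log2 0.56, edgeR adjusted p = 0.00167) and lowered it in untreated cells (log2 -0.28, edgeR adjusted p = 0.0299).

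Focal adhesions, where integrins tie filaments to the matrix, showed the same direction. Of 28 genes, 15 were called higher and 0 lower, with a median of 0.47 and between 10 and 16 called higher with each library left out in turn. DESeq2 called 16 higher and 0 lower, and at an unadjusted p under 0.05 edgeR gave 18 higher and 1 lower. Itga5, the fibronectin receptor subunit alpha 5, had 141, 135 and 128 CPM in CytoD+CK libraries, 137, 160.3 and 168 CPM in CK libraries, 130.0, 146 and 137 CPM in CytoD libraries and 319, 361 and 355 CPM in Ctrl libraries. The treated groups overlapped one another, and all lay under every Ctrl library. Its interaction was 1.12 ± 0.12 (SE; edgeR adjusted p = 0.00018). Itga11, a collagen receptor subunit, averaged 10.3 ± 0.409 CPM in CytoD+CK, 11.4 ± 1.31 CPM in CK, 36.5 ± 1.17 CPM in CytoD and 91.5 ± 6.43 CPM in Ctrl libraries. Here CK and CytoD+CK were far under CytoD, with a product of 4.54 ± 0.364 CPM (SE) and an interaction of 1.18 ± 0.12 (SE; edgeR adjusted p = 0.000107). Itga3, a laminin receptor subunit, had 1.06 ± 0.17 (edgeR adjusted p = 0.00153) and Itgb1, the beta 1 subunit that these alpha subunits share, 0.52 ± 0.08 (edgeR adjusted p = 0.00122). Itgb1 was named after its values were seen. Vcl encodes vinculin, which links integrins to actin, and had 553, 600.2 and 587 CPM in CytoD+CK libraries, 736, 718 and 505 CPM in CK libraries, 566, 567 and 559 CPM in CytoD libraries and 1397, 1099 and 1104 CPM in Ctrl libraries. The product was 307 ± 43 CPM (SE), and the interaction 0.92 ± 0.18 (SE; edgeR adjusted p = 0.00585).

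Tubulins, the subunits of microtubules, had the same direction. Of 14 tested, 9 were called higher and 0 lower, with a median of 0.77 and between 7 and 11 called higher with each library left out in turn. DESeq2 called 9 higher and 0 lower, and at an unadjusted p under 0.05 edgeR gave 10 higher and 0 lower. Tubb6, named after its values were seen, had 88.4, 72.6 and 66.2 CPM in CytoD+CK libraries, 99.7, 115 and 129 CPM in CK libraries, 94.6, 81.7 and 81.4 CPM in CytoD libraries and 228, 256 and 264 CPM in Ctrl libraries. CytoD+CK and CytoD overlapped, CK was higher and Ctrl highest, and the interaction was 0.94 ± 0.17 (SE; edgeR adjusted p = 0.00336). Tuba1a had 57.4, 53.9 and 54 CPM in CytoD+CK libraries, 34.2, 34.3 and 51.9 CPM in CK libraries, 57.1, 60.2 and 53.5 CPM in CytoD libraries and 89.7, 80.6 and 108 CPM in Ctrl libraries and an interaction of 1.16 ± 0.21 (SE; edgeR adjusted p = 0.00332). In Tuba4a the CytoD group alone was low, at 14.2 ± 1.46 CPM, against 24.6 ± 4.53 CPM in CytoD+CK, 24.3 ± 2.53 CPM in CK and 28.4 ± 2.01 CPM in Ctrl libraries. Its interaction was 1.02 ± 0.18 (SE; edgeR adjusted p = 0.00289). Tubulin genes are alike in sequence and Tuba4a overlaps Stk16, so their counts may hold reads of a neighbour or copy.

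Cholesterol synthesis genes fell with cytochalasin D when it was given alone. Cytochalasin D alone lowered 23 of 24 genes of the list and raised 0 (18.9% and 19.1% of all genes). In CK666-treated cells it lowered 5 and raised 0 (7.17% and 4.43% of all genes). The interaction was called higher for 15 and lower for 0, with a median of 0.66, and for 9 without CytoD replicate 2 or CytoD replicate 3. CK666 in CytoD-treated cells raised 14 of the 24 and lowered 0 (15.8% and 14.3% of all genes). In untreated cells it raised 2 and lowered 12 (22.5% and 18.7% of all genes). DESeq2 called 16 higher and 0 lower. Cyp51, lanosterol demethylase, had 121, 136 and 134 CPM in CytoD+CK libraries, 163, 189 and 173 CPM in CK libraries, 115, 93.2 and 93.7 CPM in CytoD libraries and 295, 247 and 258 CPM in Ctrl libraries. CytoD libraries were lowest, CytoD+CK libraries lay above them and under CK, and Ctrl libraries were highest. The product was 66.2 ± 6.57 CPM (SE), and the interaction 0.98 ± 0.14 (SE; edgeR adjusted p = 0.00105). In Lss, lanosterol synthase, the interaction was 0.80 ± 0.14 (SE; edgeR adjusted p = 0.0028).

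Glycolysis and hypoxia genes gave 8 called higher and 0 lower of 24, with a median of 0.27 and 13 higher without CK replicate 3. DESeq2 called 10 higher and 0 lower, and at an unadjusted p under 0.05 edgeR gave 11 higher and 0 lower. Pgk1, phosphoglycerate kinase, averaged 509 ± 30.9 CPM in CytoD+CK, 625 ± 44.3 CPM in CK, 357 ± 16.7 CPM in CytoD and 780.4 ± 40.7 CPM in Ctrl libraries. CytoD was lowest and CytoD+CK lay between CytoD and CK without overlap. The interaction was 0.83 ± 0.10 (SE; edgeR adjusted p = 0.00045), and that of Ldha, lactate dehydrogenase A, 0.64 ± 0.13 (SE; edgeR adjusted p = 0.00701). In the list for the unfolded protein response and the integrated stress response, 22 genes were tested, and 9 were called higher and 2 lower, with 14 higher without CK replicate 3 and 5 without CytoD replicate 3. Of the 2 lower calls 0 were left without Ctrl replicate 1, Ctrl replicate 3 or CytoD replicate 2. Chac1, a target of the stress factor ATF4 that breaks down glutathione, had 9.76, 7.14 and 7.13 CPM in CytoD+CK libraries, 2.25, 3.06 and 2.91 CPM in CK libraries, 4.4, 5.77 and 5.49 CPM in CytoD libraries and 3.26, 5.12 and 3.94 CPM in Ctrl libraries. All CytoD+CK libraries were above the rest. Cytochalasin D raised it by a log2 change of 1.54 in CK666-treated cells (edgeR adjusted p = 0.000243), against 0.35 in untreated cells (edgeR adjusted p = 0.172), and the interaction was 1.20 ± 0.27 (SE; edgeR adjusted p = 0.0127). Mthfd2, a mitochondrial folate enzyme of the same response, had 18.6 ± 1.46 CPM in CytoD+CK, 16.6 ± 3.63 CPM in CK, 11.5 ± 0.326 CPM in CytoD and 25.5 ± 2.19 CPM in Ctrl libraries and an interaction of 1.30 ± 0.19 (SE; edgeR adjusted p = 0.0011). Psat1, an enzyme of serine synthesis, had 0.73 ± 0.12 (edgeR adjusted p = 0.00238).

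Slc7a11 encodes the cystine transporter that supplies glutathione synthesis, and CytoD+CK cells had the highest level. It had 6.88, 4.85 and 4.13 CPM in CytoD+CK libraries, 1.65, 1.12 and 0.908 CPM in CK libraries, 2.1, 1.58 and 1.73 CPM in CytoD libraries and 1.63, 2.28 and 1.88 CPM in Ctrl libraries. Every CytoD+CK library was above every other library. The log2 change was 2.11 against CK (edgeR adjusted p = 0.000138), and cytochalasin D in untreated cells gave -0.10 (edgeR adjusted p = 0.78). The product was 1.15 ± 0.256 CPM (SE), and the interaction 2.21 ± 0.35 (SE; edgeR adjusted p = 0.00168). The NRF2 list that also holds it had 2 of 16 genes called higher and 2 lower (6.63% and 7.67% of all genes), with 1 lower without Ctrl replicate 2 or 3. Txnrd1, thioredoxin reductase 1, was the other called higher, at 0.69 ± 0.12 (edgeR adjusted p = 0.00266), and Gsta4, a glutathione transferase, was called lower, at -1.28 ± 0.22 (edgeR adjusted p = 0.00277). Neither compound alone changed 90 genes of the called interaction by a call, 36 called higher and 54 called lower in the interaction. The combination changed 50 of these 90 against Ctrl, 17 upward and 33 downward. Over all genes tested, whatever the single compounds did, 24.4% and 21.6% were called higher and lower in CytoD+CK against Ctrl. Slc7a11 belongs to these 50 genes. Among the others, chosen after their values were seen, Ywhag, an adaptor protein that binds phosphorylated partners, had 700.0 ± 22.9 CPM in CytoD+CK, 509 ± 46.1 CPM in CK, 481 ± 23.3 CPM in CytoD and 488 ± 8.02 CPM in Ctrl libraries and an interaction of 0.48 ± 0.10 (SE; edgeR adjusted p = 0.00799). On the lower side, Fbln1, the matrix protein fibulin 1, had 67.5, 73.1 and 65.9 CPM in CytoD+CK libraries, 128, 106 and 119 CPM in CK libraries, 131, 122 and 115 CPM in CytoD libraries and 128, 123 and 122 CPM in Ctrl libraries. Its CytoD+CK libraries lay under all others, which overlapped, and the interaction was -0.76 ± 0.11 (SE; edgeR adjusted p = 0.00126). Gas1, a surface protein of growth arrest and hedgehog signalling, had 122 ± 13.9 CPM in CytoD+CK, 190.1 ± 24.8 CPM in CK, 198 ± 5.1 CPM in CytoD and 205 ± 1.57 CPM in Ctrl libraries and an interaction of -0.59 ± 0.14 (SE; edgeR adjusted p = 0.0134).

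Matrix genes split. Of 23 genes of the fibrillar matrix, 6 were called higher and 2 lower (median 0.28), and with DESeq2 6 higher and 5 lower. Fn1, fibronectin, had 7445, 5904 and 5521 CPM in CytoD+CK libraries, 5476, 6052 and 4268 CPM in CK libraries, 8228, 8301 and 8144 CPM in CytoD libraries and 12646, 14668 and 13489 CPM in Ctrl libraries. CytoD+CK and CK overlapped under CytoD, and Ctrl was highest. The product was 3184 ± 347 CPM (SE) and the interaction 0.98 ± 0.18 (SE; edgeR adjusted p = 0.00413). Thbs1, thrombospondin 1, a matrix protein that activates TGF-beta, had 4136 ± 392 CPM in CytoD+CK, 3037 ± 873 CPM in CK, 10412 ± 973 CPM in CytoD and 17356 ± 1492 CPM in Ctrl libraries. Its interaction was 1.18 ± 0.23 (SE; edgeR adjusted p = 0.00504). Fbn1, fibrillin 1, had 0.89 ± 0.19 (edgeR adjusted p = 0.00799). Col6a1, a chain of beaded-filament collagen, went the other way, with 4970.0 ± 303 CPM in CytoD+CK, 5094 ± 827 CPM in CK, 4229 ± 37 CPM in CytoD and 2767 ± 166 CPM in Ctrl libraries and an interaction of -0.65 ± 0.14 (SE; edgeR adjusted p = 0.0102). The 2 lower calls of this list became 1 without Ctrl replicate 2, CytoD replicate 1, CytoD replicate 2 or CytoD+CK replicate 1, and 4 without CK replicate 3.

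Among 17 matrix proteases and inhibitors, 5 were called higher and 5 lower. Adamts15, a protease that cuts proteoglycans, is outside this list and among the genes with the lowest interactions. It had 5.21, 6.38 and 6.39 CPM in CytoD+CK libraries, 5.32, 5.15 and 3.35 CPM in CK libraries, 9.95, 11.1 and 9.53 CPM in CytoD libraries and 0.489, 0.507 and 0.488 CPM in Ctrl libraries. Every treated library was at least 3.35 CPM and every Ctrl library at most 0.507 CPM. Cytochalasin D raised it by a log2 change of 4.36 in untreated cells (edgeR adjusted p = 6.22e-08), and its change in CK666-treated cells was 0.39 (edgeR adjusted p = 0.132). The product was 95 ± 13.8 CPM (SE) and the interaction -3.97 ± 0.26 (SE; edgeR adjusted p = 9.41e-06). Within the list, Adamts9, a protease of the same family, had 20.2 ± 6.43 CPM in CytoD+CK, 12.7 ± 3.79 CPM in CK, 27.3 ± 5.4 CPM in CytoD and 3.79 ± 0.388 CPM in Ctrl libraries and an interaction of -2.17 ± 0.36 (SE; edgeR adjusted p = 0.00201). Mmp13, collagenase 3, was moved in opposite directions by the compounds. It had 15.1, 11.7 and 14 CPM in CytoD+CK libraries, 4.29, 4.29 and 4.04 CPM in CK libraries, 70.4, 68.5 and 69.5 CPM in CytoD libraries and 9.81, 7.57 and 8.19 CPM in Ctrl libraries. No groups overlapped, with CytoD highest and CK lowest. Cytochalasin D raised Mmp13 by a log2 change of 1.69 in CK666-treated cells (edgeR adjusted p = 3.81e-06) and 3.03 in untreated cells (edgeR adjusted p = 1.17e-08), so the interaction was -1.33 ± 0.15 (SE; edgeR adjusted p = 0.000244). Mmp11, stromelysin 3, had 249.8 ± 4.28 CPM in CytoD+CK, 294 ± 22.4 CPM in CK, 357 ± 23.5 CPM in CytoD and 183 ± 5.23 CPM in Ctrl libraries and an interaction of -1.20 ± 0.10 (SE; edgeR adjusted p = 4.49e-05). On the higher side, Timp1, an inhibitor of matrix metalloproteases, had 1.13 ± 0.28 (edgeR adjusted p = 0.0195) and Plau, the urokinase plasminogen activator, 0.98 ± 0.23 (edgeR adjusted p = 0.0149), both named after their values were seen. The higher count fell to 3 without Ctrl replicate 2, CytoD+CK replicate 1 or CytoD+CK replicate 2 and to 2 without Ctrl replicate 3, CytoD replicate 2 or CytoD replicate 3, and the lower count to 3 without Ctrl replicate 1, CytoD replicate 2 or CytoD replicate 3.

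Several factors by which stromal cells keep blood stem cells rose with cytochalasin D alone and were not called in CK666-treated cells. In CK666-treated cells cytochalasin D raised 2 of 18 genes of the marrow stromal and niche list and lowered 1 (4.43% and 7.17% of all genes). Alone it raised 9 and lowered 3 (19.1% and 18.9% of all genes). The interaction was called lower for 4 and higher for 2, with a median of -0.27, and 7 lower without CK replicate 3. Cxcl12, the chemokine that keeps blood stem cells in the marrow, had 5848, 5707 and 5683 CPM in CytoD+CK libraries, 6805, 5601 and 5462 CPM in CK libraries, 19869, 17073 and 17214 CPM in CytoD libraries and 10783, 7115 and 7094 CPM in Ctrl libraries. CytoD stood above the rest, CytoD+CK and CK overlapped, and Ctrl replicate 1 was above its group. The product was 12906 ± 2210.2 CPM (SE), and the interaction -1.17 ± 0.21 (SE; edgeR adjusted p = 0.00304). Kitl, stem cell factor, had 606, 634 and 699 CPM in CytoD+CK libraries, 567, 529.8 and 297 CPM in CK libraries, 848, 877 and 926 CPM in CytoD libraries and 304, 247 and 233 CPM in Ctrl libraries. CytoD was highest and Ctrl lowest, with CK replicate 3 inside the Ctrl range. Its interaction was -1.28 ± 0.26 (SE; edgeR adjusted p = 0.0069). Vcam1, an adhesion molecule for blood cells, had 179 ± 7.9 CPM in CytoD+CK, 172 ± 52.1 CPM in CK, 494 ± 28 CPM in CytoD and 210.0 ± 49.6 CPM in Ctrl libraries and an interaction of -1.17 ± 0.26 (SE; edgeR adjusted p = 0.0112). On the higher side, Nes, the filament protein nestin, had 9.97 ± 1.03 CPM in CytoD+CK, 7.91 ± 1.42 CPM in CK, 6.8 ± 0.676 CPM in CytoD and 18.3 ± 0.405 CPM in Ctrl libraries and an interaction of 1.76 ± 0.18 (SE; edgeR adjusted p = 0.000105).

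Complement genes gave 4 called lower and 0 higher of 12, and 4 were called lower with each library left out in turn, with 1 higher without CK replicate 1 or 2 and 2 higher without CK replicate 3. DESeq2 called 4 lower and 1 higher, and at an unadjusted p under 0.05 edgeR gave 4 lower and 2 higher. The proteases C1s and C1ra, which start the classical pathway, were lowered by cytochalasin D in CK666-treated cells and raised by it in untreated cells. C1s had 62.9, 48.2 and 43.8 CPM in CytoD+CK libraries, 86.3, 69.4 and 71.4 CPM in CK libraries, 120.4, 126 and 115 CPM in CytoD libraries and 68.7, 63.8 and 59.2 CPM in Ctrl libraries. CytoD was highest and CytoD+CK lowest, with 1 CytoD+CK library inside the Ctrl range. Its log2 change with cytochalasin D was -0.55 in CK666-treated cells (edgeR adjusted p = 0.0124) and 0.91 in untreated cells (edgeR adjusted p = 0.000107), and its interaction -1.47 ± 0.18 (SE; edgeR adjusted p = 0.000324). C1ra had 31.9 ± 1.62 CPM in CytoD+CK, 43.5 ± 4.88 CPM in CK, 63.4 ± 4.38 CPM in CytoD and 35.6 ± 0.908 CPM in Ctrl libraries and an interaction of -1.28 ± 0.12 (SE; edgeR adjusted p = 6.73e-05). C3, the central component, had 45.7 ± 11.2 CPM in CytoD+CK, 34.5 ± 10.9 CPM in CK, 27 ± 2.26 CPM in CytoD and 8.02 ± 0.326 CPM in Ctrl libraries and an interaction of -1.34 ± 0.31 (SE; edgeR adjusted p = 0.0128). Of 16 inflammatory genes, 5 were called lower and 3 higher, with 3 lower without Ctrl replicate 2, Ctrl replicate 3 or CytoD replicate 2 and 1 higher without Ctrl replicate 2 or 3 or any CytoD replicate. Cxcl1, a neutrophil chemokine, had 6.8 ± 1.21 CPM in CytoD+CK, 7.82 ± 2.31 CPM in CK, 13.7 ± 0.927 CPM in CytoD and 3.41 ± 0.597 CPM in Ctrl libraries and an interaction of -2.21 ± 0.28 (SE; edgeR adjusted p = 0.000437). Ptgs2, the inducible prostaglandin synthase COX-2, had 12.2, 6.38 and 8.05 CPM in CytoD+CK libraries, 4.77, 6.27 and 4.04 CPM in CK libraries, 5.96, 6.41 and 5.74 CPM in CytoD libraries and 13.1, 18.1 and 18.6 CPM in Ctrl libraries. Ctrl libraries were highest, and cytochalasin D raised Ptgs2 in CK666-treated cells (0.82 log2, edgeR adjusted p = 0.0339) and lowered it in untreated cells (-1.46 log2, edgeR adjusted p = 0.00025), an interaction of 2.28 ± 0.32 (SE; edgeR adjusted p = 0.000809). The macrophage list summed to less in each library with CK666 than in each without it, at the levels given above, and its part in these results was not tested. The macrophage marker called, Lyz2, at -1.11 ± 0.34 (edgeR adjusted p = 0.0444), lost its call without CK replicate 3, Ctrl replicate 2 or 3, any CytoD replicate or any CytoD+CK replicate.

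Among signalling genes, those called in the Wnt, BMP and Notch lists were mostly lower and those in the TGF-beta list mostly higher. Of all genes, 7.67% were called lower and 6.63% higher, and these lists are short. Of 17 Wnt targets and antagonists, 4 were called lower and 0 higher. At an unadjusted p under 0.05 edgeR gave 5 lower and 1 higher, and DESeq2 called 5 lower and 0 higher. Without CK replicate 1, 1 was called higher. Dkk2, a secreted Wnt antagonist, had 0.222, 0.226 and 0.176 CPM in CytoD+CK libraries, 0.158, 0.271 and 0.188 CPM in CK libraries, 2.63, 4.26 and 4.66 CPM in CytoD libraries and 0.57, 0.592 and 0.751 CPM in Ctrl libraries. CytoD libraries were at least 2.63 CPM, Ctrl between 0.57 and 0.751 CPM and all libraries with CK666 at most 0.271 CPM. Its change with cytochalasin D was 0.03 in CK666-treated cells (edgeR adjusted p = 0.969) and 2.59 in untreated cells (edgeR adjusted p = 9.54e-06), an interaction of -2.56 ± 0.46 (SE; edgeR adjusted p = 0.00329). Apcdd1, a Wnt inhibitor of the cell membrane, had 109.9 ± 29.3 CPM in CytoD+CK, 73 ± 25.6 CPM in CK, 15.2 ± 1.63 CPM in CytoD and 1.6 ± 0.294 CPM in Ctrl libraries and an interaction of -2.65 ± 0.39 (SE; edgeR adjusted p = 0.00116). Its mean was above the sum of 86.6 CPM, but by less than the SD of its CytoD+CK libraries. Of 17 genes of BMP signalling, 4 were called lower and 1 higher, with a median of -0.41. Without CK replicate 3, 7 were called lower. The 1 higher call was lost with upper quartile scaling and without CK replicate 1, any Ctrl replicate, CytoD replicate 2 or 3, or CytoD+CK replicate 1 or 2. Bmp4, a bone morphogenetic protein, had 8.13, 9.51 and 8.12 CPM in CytoD+CK libraries, 14.8, 13.2 and 17 CPM in CK libraries, 63.6, 67.6 and 65.7 CPM in CytoD libraries and 62.7, 58.6 and 56.8 CPM in Ctrl libraries. CytoD was highest, just above Ctrl, CK was far lower and CytoD+CK lowest, with no overlap. Cytochalasin D lowered Bmp4 in CK666-treated cells (-0.81 log2, edgeR adjusted p = 0.000145) and its change in untreated cells was not called (0.15 log2, edgeR adjusted p = 0.224). The interaction was -0.95 ± 0.13 (SE; edgeR adjusted p = 0.000798). Of 10 Notch genes, 3 were called lower and 0 higher. At an unadjusted p under 0.05 edgeR gave 4 lower and 2 higher, and DESeq2 called 3 lower and 1 higher. Without CK replicate 3 the Notch counts were 2 higher and 4 lower, and without Ctrl replicate 1 they were 1 higher and 2 lower. Dll1, a Notch ligand, had -1.40 ± 0.28 (edgeR adjusted p = 0.00632). Hey1, a Notch target, was called lower too (edgeR adjusted p = 0.0124), with 0.998, 1.13 and 1.59 CPM in CytoD+CK libraries, 0.473, 0.696 and 0.532 CPM in CK libraries, 1.03, 1.51 and 1.84 CPM in CytoD libraries and 0, 0.169 and 0.0751 CPM in Ctrl libraries. With 1 Ctrl library at or under 3 counts, its fitted size depends on the prior count and is not given. Of 17 TGF-beta genes, 5 were called higher and 2 lower, Tgfbi and Tgfbr3. The call of Tgfbr3 was lost in 10 of the 12 fits without 1 library, being kept without CK replicate 3 or Ctrl replicate 1. Inhba, an activin subunit, had 8.54 ± 0.987 CPM in CytoD+CK, 8.47 ± 3.74 CPM in CK, 16.9 ± 1.72 CPM in CytoD and 49.2 ± 3.51 CPM in Ctrl libraries and an interaction of 1.56 ± 0.35 (SE; edgeR adjusted p = 0.0118). Tgfbi, a TGF-beta induced matrix protein, rose with cytochalasin D alone and fell with it in CK666-treated cells, with 91.6 ± 12.1 CPM in CytoD+CK, 134 ± 5.64 CPM in CK, 125 ± 2.72 CPM in CytoD and 88.8 ± 14.7 CPM in Ctrl libraries and an interaction of -1.05 ± 0.16 (SE; edgeR adjusted p = 0.00142).

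Cell division genes were lowered by cytochalasin D whether CK666 was present or not. All 20 mitosis genes fell with cytochalasin D both in CK666-treated cells (median log2 -1.55, against 7.17% of all genes lowered) and in untreated cells (median log2 -1.28, against 18.9%). The interaction was called lower for 1, Ccnb2, and higher for 0, with a median of -0.24, and for 4 without CK replicate 3. Unadjusted p-values under 0.05 were given by edgeR for 5 lower and 0 higher. Ccnb2, the cyclin B2 of mitotic entry, had 5.66, 5.39 and 4.76 CPM in CytoD+CK libraries, 19, 13.8 and 18.2 CPM in CK libraries, 12.1, 12.3 and 11.7 CPM in CytoD libraries and 17.3, 24.8 and 23.3 CPM in Ctrl libraries. CytoD+CK libraries were lowest, CytoD libraries were next, and CK and Ctrl overlapped. The product was 9.37 ± 1.33 CPM (SE) and the interaction -0.83 ± 0.20 (SE; edgeR adjusted p = 0.0176). Mki67, the proliferation marker Ki-67, named after its values were seen, had 21.7, 17.9 and 18.2 CPM in CytoD+CK libraries, 73.6, 68.6 and 48.9 CPM in CK libraries, 39.7, 38.2 and 38.9 CPM in CytoD libraries and 70.8, 106 and 93.5 CPM in Ctrl libraries. CytoD+CK was lowest without overlap, the product was 27.6 ± 4.52 CPM (SE), and the interaction of -0.52 ± 0.22 (edgeR adjusted p = 0.137) was not called. Aurkb, a kinase of chromosome segregation chosen in the same way, averaged 4.43 ± 0.0488 CPM in CytoD+CK cells against a product of 4.83 ± 0.542 CPM (SE), with an interaction of -0.12 ± 0.17 (edgeR adjusted p = 0.662) whose sign turned without Ctrl replicate 1. On the linear scale 19 of the 20 mitosis genes were positive, against 2 on the log scale. Nuf2, a kinetochore protein, and Cdca3, a mitotic regulator, which are outside the mitosis list, were the 2 genes that each compound lowered and the combination took past the product, at -0.55 ± 0.15 (edgeR adjusted p = 0.0303) and -0.61 ± 0.18 (edgeR adjusted p = 0.0407). Their calls were lost in 7 and 9 of the 12 fits without 1 library.

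Of 24 DNA replication genes, cytochalasin D lowered 21 in CK666-treated cells (7.17% of all genes) and all 24 in untreated cells (18.9%). The interaction was called higher for 3, with a median of 0.22, and for 1 without CK replicate 1, Ctrl replicate 2 or 3, CytoD replicate 2 or 3, or CytoD+CK replicate 1, and lower for 0. Ccne1, cyclin E1, which starts S phase, held its call, with 12.6 ± 1.06 CPM in CytoD+CK, 17.4 ± 1.97 CPM in CK, 9.11 ± 0.306 CPM in CytoD and 20.1 ± 1.41 CPM in Ctrl libraries and an interaction of 0.68 ± 0.14 (SE; edgeR adjusted p = 0.00732). Mcm5, a subunit of the replicative helicase named after its values were seen, had 13.6 ± 1.09 CPM in CytoD+CK, 38.5 ± 2.45 CPM in CK, 19.4 ± 2.91 CPM in CytoD and 66.2 ± 6.84 CPM in Ctrl libraries, a product of 11.3 ± 1.26 CPM (SE) and an interaction of 0.27 ± 0.15 (edgeR adjusted p = 0.268) that was not called. In bulk RNA a smaller share of dividing cells and less of these transcripts per cell cannot be told apart, and the same holds for the fat and contractile genes.

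**Figure D4:**
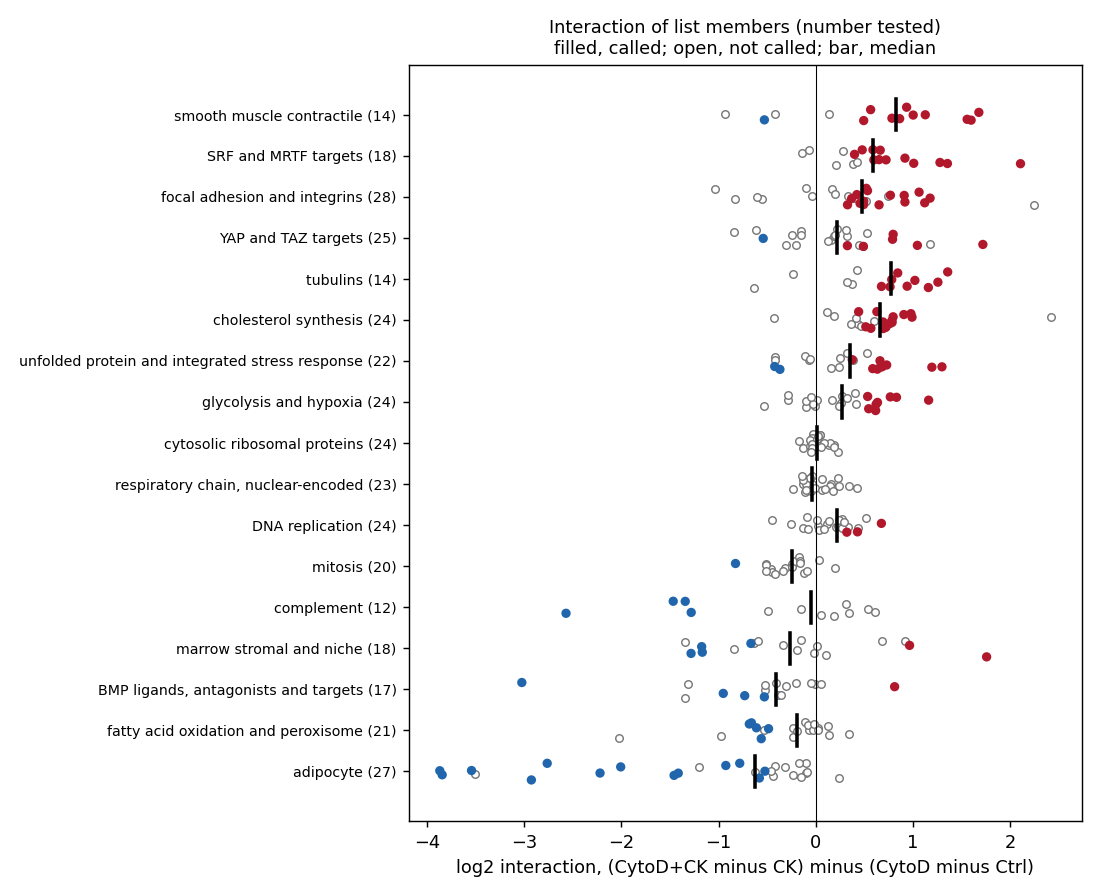
Log2 interaction of each tested member of 17 lists (number tested in brackets), filled where called (red higher, blue lower) and open where not, with the list's median as a bar. Contractile, SRF, focal adhesion, tubulin and cholesterol lists lie to the right with medians from 0.47 to 0.82, the adipocyte list to the left at -0.62, and ribosomal and respiratory chain genes close to 0.

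Ribosomal protein genes and nuclear-encoded respiratory chain genes gave no call. Of 24 and 23 genes, 0 were called by edgeR or DESeq2 in either direction, 0 had an unadjusted p under 0.05, and the medians were 0.01 and -0.04. Their range was -0.17 to 0.23 for ribosomal and -0.23 to 0.42 for respiratory chain genes. CK666 raised 22 of the 23 respiratory chain genes and lowered 0, in CytoD-treated and in untreated cells. Of all genes it raised 15.8% and lowered 14.3% in CytoD-treated cells, and raised 22.5% and lowered 18.7% in untreated cells. Without CK replicate 3, 10 ribosomal and 7 respiratory chain genes were called higher and 0 lower, and with a correction for gene length 3 of each. Genes of the insulin-like growth factor axis (14 tested) and of the nuclear lamina (12 tested) also gave 0 calls with edgeR and DESeq2, with unadjusted p under 0.05 for 1 higher and 1 lower gene of the growth factor list and for 1 higher and 0 lower of the lamina list. Without CK replicate 3, 1 higher and 2 lower genes of the growth factor list and 2 higher and 1 lower of the lamina list were called, and without CK replicate 2, 1 higher of the lamina list. In the osteoblast list, 2 of 19 genes were called higher and 0 lower (6.63% and 7.67% of all genes), with a median of 0.00. An unadjusted p under 0.05 was reached in edgeR by 5 higher and 5 lower, and DESeq2 called 3 higher and 1 lower. Smpd3, a sphingomyelinase needed for bone mineral, had 3.01 ± 0.303 CPM in CytoD+CK, 3.22 ± 0.827 CPM in CK, 4.4 ± 0.405 CPM in CytoD and 17.1 ± 0.293 CPM in Ctrl libraries and an interaction of 1.87 ± 0.22 (SE; edgeR adjusted p = 0.000303). The other, Dlx3, a homeobox factor, lost its call without Ctrl replicate 1 or 3 or CytoD replicate 2 or 3, so 1 was called without Ctrl replicate 3, CytoD replicate 2 or CytoD replicate 3, and 4 without CK replicate 3, where 1 was also called lower. Runx2, the master factor of bone, averaged 59.4 ± 4.5 CPM in CytoD+CK, 52.7 ± 7.15 CPM in CK, 90.9 ± 3 CPM in CytoD and 65.7 ± 1.66 CPM in Ctrl libraries and had an interaction of -0.29 ± 0.13 (edgeR adjusted p = 0.152). Runx2 shares its locus with Supt3h. Alpl, an enzyme that bone cells use to lay down mineral, had 7.14, 14.1 and 11.9 CPM in CytoD+CK libraries, 2.99, 4.53 and 7.2 CPM in CK libraries, 12.3, 23 and 20.5 CPM in CytoD libraries and 2.61, 4.27 and 4.7 CPM in Ctrl libraries. Replicate 1 was lowest in each of the 4 groups, and the interaction of -1.10 ± 0.48 (edgeR adjusted p = 0.142) was not called. Nor were those of Sp7, osterix, at -0.77 ± 0.94 (edgeR adjusted p = 0.633), and Spp1, osteopontin, at 0.00 ± 0.25 (edgeR adjusted p = 0.997). The sign for Spp1 turned with upper quartile scaling and without CK replicate 2, CytoD replicate 2 or 3, or CytoD+CK replicate 1.

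The remaining lists gave few calls, or calls that single libraries changed, beside 6.63% of all genes called higher and 7.67% lower. Of 11 chondrocyte genes, Sox9, the factor that starts cartilage formation, was called higher and 0 were called lower. In edgeR 2 higher and 0 lower reached an unadjusted p under 0.05, and DESeq2 called 2 higher and 0 lower. The count called higher was 2 without CK replicate 2, CK replicate 3 or Ctrl replicate 1, and 1 without each other library. Of 18 p53 targets, 1 was called higher (Pmaip1, a gene of cell death) and 2 lower. Of 18 interferon response genes, 1 was called higher and 2 lower, and of 20 genes of lysosomes and autophagy 1 and 4. With 1 library left out in turn, the p53 list gave 1 to 3 higher and 0 to 4 lower calls, the interferon list 0 to 1 and 1 to 3, and the lysosome list 0 to 1 and 1 to 5. The p53 list was at 0 lower calls without Ctrl replicate 2 or 3, CytoD replicate 2 or CytoD+CK replicate 1, and at 4 without CK replicate 3, and its higher calls at 2 without CK replicate 1 or 3 and 3 without CK replicate 2. The interferon list was at 0 higher calls without Ctrl replicate 2 or 3, CytoD replicate 2 or 3, or CytoD+CK replicate 1. The lysosome list was at 1 lower call without any Ctrl replicate, CytoD replicate 2 or 3, or CytoD+CK replicate 2. Of 3 endothelial and 3 erythroid and lymphoid markers that could be tested, 0 were called by edgeR or DESeq2, with 1 endothelial marker higher and 2 erythroid and lymphoid markers lower at an unadjusted p under 0.05. Without Ctrl replicate 1, 1 endothelial marker was called higher, and without CK replicate 2, 1 erythroid and lymphoid marker lower.

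Many of the lowest interactions were those of genes with very few counts in Ctrl cells. Of the 1038 genes called lower, 41 had at least 1 Ctrl library with no more than 3 counts, and 19 had all 3. For these the fitted size depends on the prior count and is no measure of the change. As every deposited count is even, the floor may lie above 3 counts and take in more genes. Ffar2, a receptor for short fatty acids, had 6.25, 11.9 and 11.4 CPM in CytoD+CK libraries, 3.82, 7 and 9.45 CPM in CK libraries, 1.36, 2.15 and 2.2 CPM in CytoD libraries and 0.0814, 0 and 0.0751 CPM in Ctrl libraries. Adcyap1r1, the receptor of the peptide PACAP, had 1.44, 2.34 and 2.22 CPM in CytoD+CK libraries, 0.67, 0.774 and 0.657 CPM in CK libraries, 1.15, 1.58 and 1.26 CPM in CytoD libraries and 0.0407, 0 and 0.0376 CPM in Ctrl libraries, all 3 Ctrl libraries at or under 3 counts. Retn, which encodes the fat cell hormone resistin, had 4.66, 6.35 and 6.46 CPM in CytoD+CK libraries, 3.74, 5.3 and 6.92 CPM in CK libraries, 1.4, 1.58 and 1.59 CPM in CytoD libraries and 0.0407, 0.0846 and 0.15 CPM in Ctrl libraries. Lgals12, a galectin of lipid droplets, was above 3 counts in every library, with 12.5, 17.7 and 16.1 CPM in CytoD+CK libraries, 7.8, 13.8 and 12.3 CPM in CK libraries, 3.7, 4.09 and 4.22 CPM in CytoD libraries and 0.204, 0.211 and 0.225 CPM in Ctrl libraries and an interaction of -3.77 ± 0.35 (SE; edgeR adjusted p = 6.73e-05). The 12 genes that the rule names at the lower end were S100a8, Ffar2, Tshr, Slc22a3, Adcyap1r1, Ces1d, Adamts15, A530016L24Rik, Retn, Plin1, Lgals12 and Slc25a34. Fitted size sets this order. The places of Ffar2, Adcyap1r1 and Retn, each with at least 1 Ctrl library at or under 3 counts, therefore do not measure their change. The calls of S100a8 and Tshr were lost in 2 and 7 of the 12 fits without 1 library.

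At the other end stood Krt80, Trim54, Cd300lb, Ptgs2, Elovl7, Slc7a11, Acta1, Fhl1, Klhl30, ORF63, Unc5c and Acsbg1. Krt80, a type II keratin, had 1.11, 0.451 and 0.6 CPM in CytoD+CK libraries, 0.748, 0.58 and 0.563 CPM in CK libraries, 0.617, 0.839 and 0.686 CPM in CytoD libraries and 2.85, 4.4 and 4.47 CPM in Ctrl libraries. All treated libraries were at most 1.11 CPM and all Ctrl libraries at least 2.85 CPM. Its product was 0.115 ± 0.0217 CPM (SE), near 0, and its interaction 2.62 ± 0.45 (SE; edgeR adjusted p = 0.00253). Trim54, a muscle protein that binds microtubules, had 0.481, 0.197 and 0.212 CPM in CytoD+CK libraries, 0.197, 0.116 and 0.156 CPM in CK libraries, 1.93, 1.28 and 1.05 CPM in CytoD libraries and 3.66, 4.44 and 5.52 CPM in Ctrl libraries. CK and CytoD+CK were lowest and met at 0.197 CPM, and CytoD and Ctrl stood apart above them. The interaction of Trim54 was 2.57 ± 0.54 (SE; edgeR adjusted p = 0.00842). Acta1, skeletal muscle alpha actin, had 0.222, 0.254 and 0.459 CPM in CytoD+CK libraries, 1.06, 2.01 and 2.47 CPM in CK libraries, 0.452, 0.268 and 0.325 CPM in CytoD libraries and 7.9, 10.8 and 10.1 CPM in Ctrl libraries. CytoD+CK and CytoD were lowest and overlapped. Its interaction was 2.21 ± 0.51 (SE; edgeR adjusted p = 0.013), and the call was lost without CytoD+CK replicate 3, where the adjusted p was 0.0519. Elovl7, an enzyme that lengthens fatty acids, had 2.25 ± 0.31 (edgeR adjusted p = 0.000803).

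Cytochalasin D raised in CK666-treated cells and lowered in untreated cells 27 of the 897 genes called higher, and did the reverse for 39 of the 1038 called lower. Of all genes, it raised 4.43% and lowered 7.17% in CK666-treated cells, and raised 19.1% and lowered 18.9% in untreated cells. The interaction is the difference of these changes, so opposite calls describe it and add no evidence to it. Sema3g, a guidance protein that fat cells secrete, had 2.51, 3.05 and 3.18 CPM in CytoD+CK libraries, 7.29, 11 and 9.89 CPM in CK libraries, 1.97, 2.32 and 2.02 CPM in CytoD libraries and 0.896, 0.888 and 1.16 CPM in Ctrl libraries. CK libraries were highest, followed by CytoD+CK, CytoD and Ctrl with no overlap. Cytochalasin D lowered it in CK666-treated cells (-1.69 log2, edgeR adjusted p = 3.56e-05) and raised it in untreated cells (1.09 log2, edgeR adjusted p = 0.000814), an interaction of -2.78 ± 0.26 (SE; edgeR adjusted p = 6.62e-05). Serpina3g, a serpin of immune cells, had 22, 24.7 and 25.1 CPM in CytoD+CK libraries, 30.4, 31.6 and 32 CPM in CK libraries, 37.7, 34.3 and 33.1 CPM in CytoD libraries and 8.39, 5.75 and 6.42 CPM in Ctrl libraries and an interaction of -2.74 ± 0.16 (SE; edgeR adjusted p = 5.01e-06). It overlaps Serpina3f, with which it may share reads. Raph1, lamellipodin, which recruits filament elongation factors to the leading edge, had 63.8, 53.3 and 54.3 CPM in CytoD+CK libraries, 39.9, 48.6 and 30.3 CPM in CK libraries, 37.8, 37.8 and 37.3 CPM in CytoD libraries and 71.5, 81.3 and 72.8 CPM in Ctrl libraries. CytoD and CK overlapped, CytoD+CK stood above both, and Ctrl was highest. The interaction was 1.53 ± 0.19 (SE; edgeR adjusted p = 0.000405). Dusp8, a phosphatase of MAP kinases, had 3.17 ± 0.324 CPM in CytoD+CK, 1.41 ± 0.476 CPM in CK, 2.82 ± 0.246 CPM in CytoD and 4.4 ± 0.448 CPM in Ctrl libraries and an interaction of 1.81 ± 0.28 (SE; edgeR adjusted p = 0.00155). Itgad, an integrin alpha subunit, had 21.5 ± 3.49 CPM in CytoD+CK, 34.9 ± 2.16 CPM in CK, 4.84 ± 0.515 CPM in CytoD and 2.97 ± 0.101 CPM in Ctrl libraries and an interaction of -1.40 ± 0.17 (SE; edgeR adjusted p = 0.000324). These 5 were chosen after their values were seen.

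Promoter sequence was compared between genes called higher and genes called lower. In the 250 bases before the start sites of RefSeq's table (GRCm38.p6), the SRF binding element known as the CArG box, written CC, 6 letters of A or T, and GG, was found in 19 of 841 promoters of genes called higher (2.26%), in 5 of 918 of genes called lower (0.545%), in 1.28% of promoters of all genes tested and in 1.47% of all promoters in the table. Among the 18 genes called higher that carry it were Acta1, Actg1, Fhl1, Filip1l, Myl9 and Vcl. Others of the 18, such as Eif2s1, Ergic1, Glipr2, Lclat1, Pitpna and Tmem63a, are in none of the gene lists. The genes called lower that carry it were Ager, Aspa, Iah1, Mpeg1 and Selenbp1. The TEAD motif GGAATG was in 12.1% of promoters of genes called higher, 10.7% of those called lower and 10.9% of all tested. The AP-1 motif TGANTCA was in 4.99%, 5.45% and 4.81% of these, the C/EBP motif TTGCNNAA in 7.97%, 9.91% and 7.51%, and the CRE motif TGACGTCA in 2.73%, 1.74% and 2.55%. Motifs were searched on both strands, no test was made, and a match is a match of letters only. Promoters of Vcl, Acta1 and Myl9 are printed as holders of the CArG box, and that of Plin1 as the adipocyte gene described first. They are followed by the 2 genes at each end of the interaction that the table holds near the start given in the files. The ends are by fitted size, which for Ffar2 depends on the prior count. Myl9 encodes the regulatory light chain of smooth muscle myosin, and had an interaction of 1.00 ± 0.20 (SE; edgeR adjusted p = 0.00587). Each is given 5′ to 3′ on the gene's strand, in lower case, with matches to the 5 motifs in capitals.
Vcl: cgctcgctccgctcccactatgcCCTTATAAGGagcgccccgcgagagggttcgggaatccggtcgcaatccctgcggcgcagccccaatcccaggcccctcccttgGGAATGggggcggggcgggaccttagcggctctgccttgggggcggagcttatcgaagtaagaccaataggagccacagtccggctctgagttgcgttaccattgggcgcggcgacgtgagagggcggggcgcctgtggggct
Acta1: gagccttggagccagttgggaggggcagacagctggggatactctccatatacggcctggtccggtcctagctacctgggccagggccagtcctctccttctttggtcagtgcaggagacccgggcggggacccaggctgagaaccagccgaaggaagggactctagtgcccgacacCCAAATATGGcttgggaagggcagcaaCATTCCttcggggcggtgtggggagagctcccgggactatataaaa
Myl9: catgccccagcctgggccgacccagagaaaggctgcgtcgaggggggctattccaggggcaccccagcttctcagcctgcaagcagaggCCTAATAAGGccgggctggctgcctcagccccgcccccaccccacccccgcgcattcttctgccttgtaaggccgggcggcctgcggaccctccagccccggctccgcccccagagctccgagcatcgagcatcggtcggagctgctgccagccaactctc
Plin1: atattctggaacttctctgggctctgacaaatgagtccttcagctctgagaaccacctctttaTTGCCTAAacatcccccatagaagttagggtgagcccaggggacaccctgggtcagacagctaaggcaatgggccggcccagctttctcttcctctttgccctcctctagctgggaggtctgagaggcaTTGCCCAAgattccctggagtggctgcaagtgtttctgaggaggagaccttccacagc
Ffar2: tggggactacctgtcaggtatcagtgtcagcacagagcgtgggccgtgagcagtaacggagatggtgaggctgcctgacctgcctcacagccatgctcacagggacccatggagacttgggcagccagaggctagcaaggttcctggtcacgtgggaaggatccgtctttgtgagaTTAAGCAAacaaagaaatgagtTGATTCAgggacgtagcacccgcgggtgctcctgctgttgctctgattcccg
S100a8: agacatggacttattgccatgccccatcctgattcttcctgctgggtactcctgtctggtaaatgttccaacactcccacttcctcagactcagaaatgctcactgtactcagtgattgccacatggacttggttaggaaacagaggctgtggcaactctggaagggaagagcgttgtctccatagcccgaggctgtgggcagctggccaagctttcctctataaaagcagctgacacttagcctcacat
Trim54: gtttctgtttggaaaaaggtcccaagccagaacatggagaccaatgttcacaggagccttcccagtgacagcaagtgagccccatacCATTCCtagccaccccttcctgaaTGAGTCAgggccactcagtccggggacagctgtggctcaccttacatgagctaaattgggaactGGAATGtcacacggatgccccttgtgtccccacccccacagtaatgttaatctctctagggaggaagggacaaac
Cd300lb: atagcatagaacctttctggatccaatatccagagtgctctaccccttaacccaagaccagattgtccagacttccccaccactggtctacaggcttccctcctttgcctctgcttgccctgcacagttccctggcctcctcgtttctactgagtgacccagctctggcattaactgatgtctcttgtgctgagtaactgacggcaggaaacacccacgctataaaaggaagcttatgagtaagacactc

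The CArG box begins 227 bases before the start site in Vcl (chr14:20929148-20929397, plus strand), 73 in Acta1 (chr8:123894776-123895025, minus strand) and 161 in Myl9 (chr2:156775214-156775463, plus strand). Vcl and Acta1 also hold a TEAD motif, at 143 and 46 bases before the start. Plin1 (chr7:79732777-79733026, minus strand) holds 2 C/EBP motifs, at 187 and 58 bases, and Ffar2 (chr7:30823776-30824025, minus strand) a C/EBP motif at 74 and an AP-1 motif at 52 bases. Trim54 (chr5:31116362-31116611, plus strand) holds 2 TEAD motifs, at 163 and 75 bases, and an AP-1 motif at 139 bases. In S100a8 (chr3:90668821-90669070, plus strand) and Cd300lb (chr11:114934372-114934621, minus strand) these letters were not found in the window.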

How the data were processed

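Total RNA of the 12 samples was sequenced. The deposited table gives read counts per gene for each library, made by the authors with CASAVA 1.9, TopHat and HTSeq, per the submitters' processing notes. Those notes name the build hg19, while the mouse coordinates in the table overlapped the GRCm38 gene of the same name for 99.4% of the 20970 rows matched by name. The RPKM values that the authors deposited beside the counts use library totals 1.12 to 1.16 times the sums of gene counts and were used in no test. Every deposited count is even, so halved counts were tried as well. Strand use in counting is not given in the sources used here, so reads of overlapping genes, such as Tagln and Pcsk7, cannot be told apart.

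Counts were analysed in edgeR 4.0.16 (R 4.3.3): filterByExpr kept 13534 of 23358 rows, libraries were scaled by TMM, and 1 mean per group was fitted over all 12 libraries. The interaction and the other contrasts were tested by quasi-likelihood, with Benjamini-Hochberg adjustment and a threshold of 0.05. Products and sums come from group means of CPM. Alternatives were DESeq2 1.42.0, RLE and upper quartile scaling, Rn45s removed (1.86% to 4.52% of counts), a correction for gene length, halved counts, no filter on low counts, a replicate block, a minimum log2 size of 1 and each library left out. On simulated counts with 50 genes per fold and 13424 genes in the fit, the interaction test called 36% of genes at 1.5-fold, 88% at 2-fold, 98% at 4-fold and 76% at 0.5-fold, and 5 of its 154 calls were unchanged genes. These counts were drawn gene by gene with the spread that the fit estimated. The changed genes had a mean over 50 counts, and no library had a trend with gene length like that of CK replicate 3. The shares therefore need not hold for the real libraries.

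The members, the 38 gene lists (754 of 756 entries found, 11 under an older symbol) and the tests were chosen with earlier results of these data known. Genes named are, with a mean of at least 1 CPM, the 12 called genes with the highest and the 12 with the lowest log2 interaction, up to 4 called members of each list, the called gene with the highest CytoD+CK level in each direction and a fixed set of 22, beside those said to be chosen after their values were seen. Some genes that this rule names are not reported here. Libraries differed from one another by more than counting noise in every group, with a chi-square of at least 11.8 per degree of freedom, so all 12 were kept as separate samples.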

Additional observations from a re-analysis of the deposited data

Results flagged for a closer look

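The change with cytochalasin D differed between CK666-treated and untreated cells for 897 genes called higher and 1038 called lower in the interaction, by the edgeR test of the difference itself. Among them, cytochalasin D changed 27 of the 897 and 39 of the 1038 genes by a call in opposite directions in CK666-treated and in untreated cells. These opposite changes are parts of the interaction and no evidence of their own. Of the named genes, it raised Ptgs2, Flna, Daam1, Pmaip1, Raph1 and Dusp8 in CK666-treated cells and lowered them in untreated cells, with log2 interactions of 2.28, 1.01, 0.83, 0.95, 1.53 and 1.81. It lowered Acacb, C1s, C1ra, Tgfbi, Hadh, Serpina3g, Sema3g and Itgad in CK666-treated cells and raised them in untreated cells, with log2 interactions of -0.93, -1.47, -1.28, -1.05, -0.66, -2.74, -2.78 and -1.40.

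Acacb, the acetyl-CoA carboxylase that checks fatty acid oxidation, averaged 13.1 ± 0.605 CPM in CytoD+CK, 17.2 ± 1.5 CPM in CK, 14 ± 0.471 CPM in CytoD and 9.69 ± 0.413 CPM in Ctrl libraries (SD, n = 3 each). Pmaip1, which encodes the cell death protein Noxa, averaged 11.4 ± 1.31 CPM in CytoD+CK, 9.08 ± 0.362 CPM in CK, 15.1 ± 1.17 CPM in CytoD and 23.2 ± 1.22 CPM in Ctrl libraries. The levels of the other genes stand with their comparisons. With 3 libraries a group, no test for single libraries far from their group was made.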

How the results depend on the processing

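The 897 higher and 1038 lower calls of the interaction became 1449 higher with the gene length correction, and 152 higher and 362 lower with a log2 size of at least 1. With each library left out in turn they ranged from 506 to 1936 higher and from 569 to 1460 lower. DESeq2 called 1272 higher and 1331 lower. For CytoD+CK against CK, genes called higher numbered 1025 with DESeq2 and 937 with the length correction, and with each library left out 242 to 1144 were called higher and 503 to 1419 lower. The cause was not tested. Of the 151 named genes with a called interaction, 117 were called in every setting and 0 changed sign in any. Of 3020 pairs of such a gene and a setting, 214 lost the call, most without Ctrl replicate 3 (29 genes), Ctrl replicate 2 (27), CytoD replicate 2 (27) and CytoD replicate 3 (24). Among uncalled genes, the log2 interaction of Spp1 turned to -0.0152 with the replicate block and -0.0623 with upper quartile scaling, and ranged from -0.32 to 0.15 with each library left out. That of Cyr61 ranged from -0.12 to 0.38 and that of Aurkb from -0.19 to 0.0123. The labels do not say whether replicate numbers pair the samples, and the correlations of deviations did not settle it. Of 18 same-numbered pairs, 4 had a correlation over 0.1 (range -0.08 to 0.26, against -0.18 to 0.17 for other numbers). With the replicate block 978 genes were called higher and 1100 lower, and 2 named calls were lost. The interaction of Alpl, lowest in replicate 1 of each group, was called with the block (-1.09, edgeR adjusted p = 0.00839), and the osteoblast list went to 3 higher and 3 lower calls. Depth limits the genes near 3 counts in Ctrl libraries, 41 of those called lower, and more if the even counts are doubled ones.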
